A study of Mus musculus with 20 samples.

Results

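The Serpina3 genes of the mouse are a cluster of closely related protease inhibitor genes, and 8 of them were followed here, Serpina3n, Serpina3m, Serpina3i, Serpina3g, Serpina3f, Serpina3c, Serpina3k and Serpina3h. They were chosen by name from the 33119 genes of the count table, with earlier results of these data known. Serpina3n was chosen because its level was higher in hAPOE4 mice, so that difference is given as a description with no test. The question was whether the paralogs shared it. The hippocampus of 20 mice, each 16 months old and on a C57BL/6 background, was profiled by RNA sequencing. The groups were hAPOE3 male, hAPOE4 male, hAPOE3 female and hAPOE4 female, with 5 mice in each. All mice were homozygous for a targeted replacement of mouse Apoe by human APOE3 (hAPOE3) or human APOE4 (hAPOE4), so the controls carried a human allele too, and no mouse with its own Apoe was included. The mice came from a commercial supplier and were perfused with buffer before the hippocampus was dissected.

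Serpins are inhibitors that trap serine or cysteine proteases with an exposed loop that the protease cuts. Humans carry a single SERPINA3 gene, which encodes the acute-phase plasma protein alpha-1-antichymotrypsin, whereas the mouse carries a row of copies on chromosome 12. In the mouse brain, Serpina3n is the copy best known from reactive astrocytes and from oligodendrocytes in injury and disease models, and its secreted product inhibits granzyme B, cathepsin G and neutrophil elastase. Cytokine signalling through STAT3 and NF-kB, and glucocorticoids, are known inducers of the gene.

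The 8 genes lay on chromosome 12 in the GRCm38 build of the mouse genome. Serpina3n had the last position of the row, at chr12:104406729-104414329 on the plus strand, and the start of Serpina3c, the member farthest from it, was 260.3 kb away at chr12:104146382-104153870 on the minus strand. Serpina3m (chr12:104338486-104394257) and Serpina3k (chr12:104338486-104346144) were annotated from the same start, and their loci overlapped over 7659 bp. Serpina3h (chr12:104247905-104253669) was annotated as a transcribed pseudogene and the other members as protein coding.

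Because the copies are alike, how far a read of 75 bases could be placed bears on every value below. Of all 75-base stretches of the annotated Serpina3n transcript, 98.5% occurred in no other gene, and of all 31-base stretches 78.4%. The longest stretch that Serpina3n shared without a mismatch was 100 bases long with Serpina3g, 69 with Serpina3c, 65 with Serpina3m, 57 with Serpina3f, 46 with Serpina3i and Serpina3h, and 39 with Serpina3k. Among the other copies, the pseudogene Serpina3e-ps shared a run of 103 bases. The windows below show the closest coding stretch of Serpina3n with Serpina3g, Serpina3m and Serpina3c, the other protein-coding members that entered the test. Each is 75 coding bases, printed 5′ to 3′ in lower case with the bases that differ from the partner in capitals.
Serpina3n with Serpina3g: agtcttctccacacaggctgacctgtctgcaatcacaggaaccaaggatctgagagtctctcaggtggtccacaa
Serpina3g with Serpina3n: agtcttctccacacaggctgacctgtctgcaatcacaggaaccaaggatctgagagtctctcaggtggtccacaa
Serpina3n with Serpina3m: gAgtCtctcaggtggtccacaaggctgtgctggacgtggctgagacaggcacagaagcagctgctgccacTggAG
Serpina3m with Serpina3n: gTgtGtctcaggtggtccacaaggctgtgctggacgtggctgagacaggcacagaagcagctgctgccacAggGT
Serpina3n with Serpina3c: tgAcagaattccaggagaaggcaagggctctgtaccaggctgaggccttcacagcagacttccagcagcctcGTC
Serpina3c with Serpina3n: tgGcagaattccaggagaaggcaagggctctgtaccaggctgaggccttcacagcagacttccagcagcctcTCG

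The Serpina3g window, which had 0 differences, crossed the junction of exons 4 and 5 in both genes, between chr12:104412421-104413422 in Serpina3n and chr12:104240334-104241046 in Serpina3g. A read inside it fits both genes, and 1.31% of the 75-base stretches of Serpina3n were of this kind, against 1.46% for Serpina3e-ps and 0 for the other members. The Serpina3m window crossed the same junction, at chr12:104412474-104413475 in Serpina3n and chr12:104392782-104393796 in Serpina3m, and had 5 differences. No 75-base stretch was shared between these genes, although 3.88% of the 31-base stretches of Serpina3n were. The Serpina3c window lay within exon 2, at chr12:104409113-104409187 in Serpina3n and chr12:104151561-104151635 in Serpina3c, and had 4 differences. Serpina3m was closest to its locus partner Serpina3k, with which it shared 24.49% of its 31-base and 9.21% of its 75-base stretches. Of the 75-base stretches, 90.3% of those of Serpina3m and 92.6% of those of Serpina3k occurred in no other gene. Counts from the shared part are uncertain as to which of the pair they belong to. The counting shared such reads between genes by a statistical estimate.

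All 8 genes had a row in the count table. The total count per mouse ranged from 35778879 to 52520279, and no 2 of the 20 libraries agreed within sampling noise. A filter on low counts kept 21724 genes and 5 of the 8 members, Serpina3n, Serpina3m, Serpina3g, Serpina3c and Serpina3h. Levels are given as CPM, which are counts scaled to 1000000 per library and corrected for composition. The filter asked for 0.233 CPM in 5 mice. All 10 hAPOE3 and all 10 hAPOE4 mice reached that level for Serpina3n, and 9 and 10 for Serpina3g. For Serpina3m, 0 hAPOE3 and 5 hAPOE4 mice did so, for Serpina3c 4 and 10, and for Serpina3h 1 and 4, so these entered the test mostly or entirely through the hAPOE4 mice. The Apoe row, 37.4 to 79.9 CPM in hAPOE3 and 53.0 to 98.9 CPM in hAPOE4 mice, was counted against mouse transcripts and is no check of the human allele.

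Serpina3n was about 4 times as abundant in hAPOE4 as in hAPOE3 hippocampus, in both sexes. The 5 hAPOE3 males had 31.4, 37.6, 39.6, 47.6 and 53.3 CPM, and the 5 hAPOE4 males 128, 132, 159, 182 and 195 CPM. The 5 hAPOE3 females had 37.0, 37.5, 43.4, 44.0 and 51.2 CPM, and the 5 hAPOE4 females 145.8, 173, 190, 206 and 206 CPM. The lowest hAPOE4 mouse, a male, was thus well above the highest hAPOE3 mouse, also a male. The mean was 41.9 ± 8.60 against 159 ± 29.6 CPM in males and 42.6 ± 5.77 against 184 ± 25.5 CPM in females (SD, n = 5 each). The fitted log2 fold change was 1.92 (SE 0.15) in males, 2.11 (SE 0.15) in females and 2.02 (SE 0.11) as the mean of the sexes, which is a fold of 4.05. These are values of the contrast for which the gene was chosen. In bulk tissue, more RNA per cell and more cells of a type that holds the RNA cannot be told apart.

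**Figure D1:**
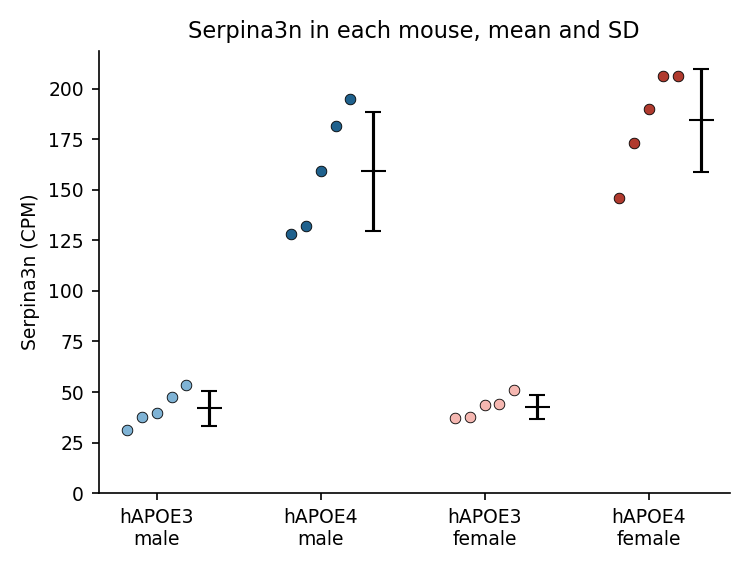
Serpina3n level in CPM (vertical axis, linear from 0) for each of the 20 mice, by group. Points are mice, and the bar beside each group is the mean with its SD (n = 5). The 10 hAPOE4 mice sit between 128 and 206 CPM, all above the 10 hAPOE3 mice at 31.4 to 53.3 CPM.

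Whether the Serpina3n difference depended on sex was not part of the choice and was tested. The female change exceeded the male change by 0.19 on the log2 scale (SE 0.21, 95% interval -0.25 to 0.62, adjusted p = 1.00, edgeR's quasi-likelihood test), which is within the spread between mice. Females and males did not differ detectably in hAPOE3 mice (log2 fold change 0.025, SE 0.15, adjusted p = 0.971, edgeR) or in hAPOE4 mice (0.21, SE 0.15, adjusted p = 1.00, edgeR). None of the 5 tested members passed the threshold of an adjusted p of 0.05 in a sex comparison or in the interaction. At an unadjusted p under 0.05, 2 members did so between hAPOE3 females and males (Serpina3m and Serpina3c, both lower in females), and 0 did so between the sexes in hAPOE4 mice or in the interaction. DESeq2 also called 0 paralogs in these 3 comparisons. For Serpina3m, the unadjusted result in hAPOE3 mice rests on 3 counts over the males against 0 over the females. No sex difference can be read from counts this low. Of all genes tested, 0.0414% passed between the sexes in hAPOE3 mice, 0.437% in hAPOE4 mice and 0.184% in the interaction.

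Serpina3m was higher in hAPOE4 mice of both sexes, at a far lower level than Serpina3n. Its counts were 0, 0, 0, 1 and 2 in the 5 hAPOE3 males and 0 in all 5 hAPOE3 females. They were 9, 10, 12, 13 and 13 in the 5 hAPOE4 males and 6, 7, 9, 9 and 14 in the 5 hAPOE4 females. Every hAPOE4 mouse was therefore above every hAPOE3 mouse, a separation seen for 0.557% of tested genes within males, 0.985% within females and 0.0967% over all 10 against 10 mice. As Serpina3m entered the test through the hAPOE4 mice alone, it is not compared with these shares. Serpina3m passed the threshold in males (adjusted p = 0.00151), in females (adjusted p = 0.00107) and for the mean of the sexes (adjusted p = 1.66e-05, edgeR's quasi-likelihood test over all genes). It also passed in these 3 comparisons with no filter on low counts. Over the groups, 57 counts in hAPOE4 against 3 in hAPOE3 males gave a 19-fold difference after scaling for depth, with an exact 95% counting interval of 6.18 to 94.9. In females, 45 counts against 0 gave a 13.6-fold difference with 3 counts over the group taken as the floor of a count of 0. The floor allows for counting error in the hAPOE3 group alone, so this fold is no 95% limit. The interval in males covers counting error only.

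The sum of Serpina3m and Serpina3k, which does not depend on how reads were split within the pair, was 3 counts in hAPOE3 and 68 in hAPOE4 males, and 0 in hAPOE3 and 52 in hAPOE4 females. Serpina3m did not stand in a fixed ratio to Serpina3n. Per 1000 Serpina3n counts, the pooled value was 0.333 Serpina3m counts in hAPOE3 males and 0 in hAPOE3 females, against 1.65 in hAPOE4 males and 1.09 in hAPOE4 females. Among the hAPOE4 mice, the 2 females with the most Serpina3n counts (9572 and 9593) had 9 Serpina3m counts each, and the female with the most Serpina3m (14) had 7957 Serpina3n counts. With group means subtracted, the log2 CPM of Serpina3m and Serpina3n had a Pearson r of -0.012 over the 20 mice, which share library and depth, against 0.44 for Serpina3g, 0.40 for Serpina3c and 0.16 for Serpina3h. At these counts such values are a description only.

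**Figure D2:**
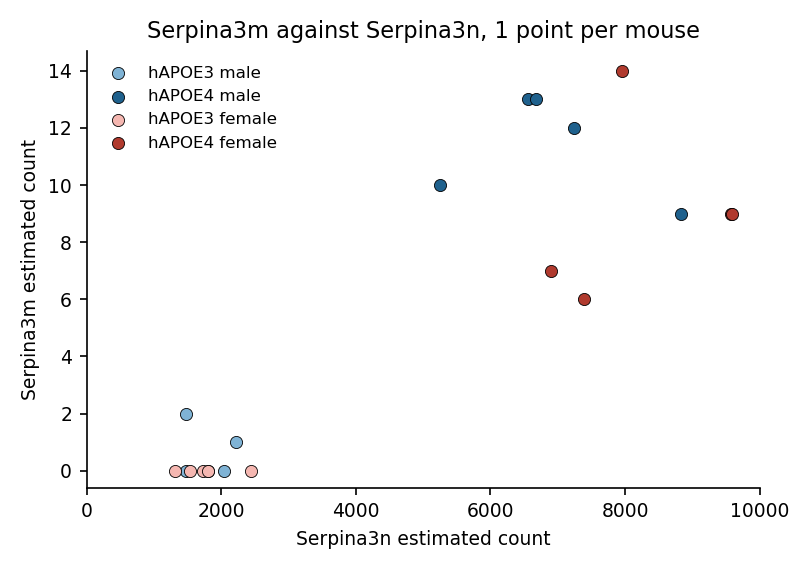
Estimated counts of Serpina3m (vertical axis) against those of Serpina3n (horizontal axis), both linear, with 1 point per mouse coloured by group. The hAPOE3 mice lie at 0 to 2 Serpina3m counts and the hAPOE4 mice at 6 to 14, and within the hAPOE4 mice Serpina3m does not climb with Serpina3n.

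When a score of oocyte genes was added to the model, the call for Serpina3m in males was lost (adjusted p = 0.348, edgeR). Its log2 fold change was then 3.67 (SE 0.84), against 3.996 (SE 0.58) without the score. With the score the estimate was lower and its SE higher. Over all genes, calls in males fell from 135 to 6 with the score. The score differed between the male groups, so this fit can hardly separate it from genotype in males. The summed level of the oocyte genes was 7.08 to 205 CPM in hAPOE4 males against 6.80 to 9.31 CPM in hAPOE3 males. Of the 12 tested, 8 passed the threshold as higher in hAPOE4 males, beside 0.419% of all tested genes. The list was chosen with earlier results of these data known. The count of 8 is therefore a description and is not compared with that share. The hAPOE4 male with 7.08 CPM, a single mouse, had 9 Serpina3m counts and 195 CPM of Serpina3n, both above every hAPOE3 mouse. In females, whose oocyte level was 7.41 to 9.21 CPM, the call held with the same score in the model (adjusted p = 0.00137, edgeR). Whether the oocyte signal had a part in the Serpina3m or Serpina3n difference was not tested.

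Serpina3c, named as a kallikrein-binding protein, passed the threshold only for the mean of the sexes, and narrowly (log2 fold change 1.14, SE 0.30, adjusted p = 0.0466, edgeR). Its counts were 2, 2, 2, 7 and 12 in hAPOE3 females and 10, 13, 17, 25 and 26 in hAPOE4 females. They were 4, 9, 13, 13 and 16 in hAPOE3 males and 12, 15, 17, 18 and 19 in hAPOE4 males. The groups overlapped in both sexes, by a single hAPOE3 female and by several males. The change was 1.74 (SE 0.44, adjusted p = 0.0778) in females and 0.54 (SE 0.40, adjusted p = 0.666) in males, and the difference between these did not pass the test (1.19, SE 0.60, adjusted p = 1.00, edgeR). Only 4 of the 20 fits that left out 1 mouse kept the call, with log2 fold changes of 1.04 to 1.40 and adjusted p of 0.0201 to 0.0880. With no filter on low counts the call was lost too. Serpina3c entered the test mostly through the hAPOE4 mice, as 10 of these and 4 hAPOE3 mice reached the filter level. DESeq2 called Serpina3c in females too (log2 fold change 1.77, adjusted p = 0.0215), as did edgeR without hAPOE3 female replicate 5, the mouse with 12 counts (2.25, adjusted p = 0.0399).

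Serpina3g, which encodes an intracellular inhibitor of lysosomal cathepsins known from lymphocytes, was the second most abundant member and did not pass the threshold. It had 0.213, 0.241, 1.45, 1.54 and 1.94 CPM in hAPOE3 males and 1.22, 1.91, 2.08, 2.47 and 3.41 CPM in hAPOE4 males. It had 0.828, 1.48, 1.52, 1.82 and 2.14 CPM in hAPOE3 females and 2.18, 2.18, 2.84, 2.84 and 3.69 CPM in hAPOE4 females. The female groups did not overlap, a separation seen for 0.985% of tested genes within females. The lowest hAPOE4 female was close to the highest hAPOE3 female, and the male groups overlapped. Males 1 and 4 of the hAPOE3 group stood far below the other 3, with 9 and 10 counts against 55 to 105. The log2 fold change was 1.03 (SE 0.44, 95% interval 0.11 to 1.96, adjusted p = 0.482) in males, 0.81 (SE 0.43, -0.096 to 1.72, adjusted p = 0.553) in females and 0.92 (SE 0.31, 0.27 to 1.57, adjusted p = 0.113) for the mean of the sexes by edgeR. DESeq2 put the last of these past the threshold (adjusted p = 0.0428). Of the 75-base stretches of the far more abundant Serpina3n, 1.31% fit Serpina3g too. Serpina3n had 17815 counts in hAPOE3 and 75952 in hAPOE4 mice in total, against 570 and 1100 for Serpina3g. How far reads of Serpina3n entered the level and the change of Serpina3g was not tested.

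Serpina3h, the transcribed pseudogene, had 0 to 18 counts in hAPOE3 and 3 to 17 counts in hAPOE4 mice. Its log2 fold change of 0.71 (SE 0.47) for the mean of the sexes did not pass the threshold (adjusted p = 0.443, edgeR). A single mouse, hAPOE3 male replicate 3 with 18 counts, moved this value most. Without it the change was 1.46 (adjusted p = 0.0613) for the mean of the sexes, and in males it moved from 0.68 (adjusted p = 0.747) to 2.19 (adjusted p = 0.165, edgeR). In total, the paralogs past the threshold were 1 of 4 tested in males and 1 of 4 in females, Serpina3m both times, and 2 of 4 for the mean of the sexes, Serpina3m and Serpina3c, all higher in hAPOE4. Of all tested genes, 0.419% were called higher in hAPOE4 males (0.621% in either direction), 0.124% in hAPOE4 females (0.667%) and 0.704% for the mean of the sexes (2.45%). Since Serpina3m and Serpina3c entered the test mostly through the hAPOE4 mice, the shares of members called are not compared with these.

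**Figure D3:**
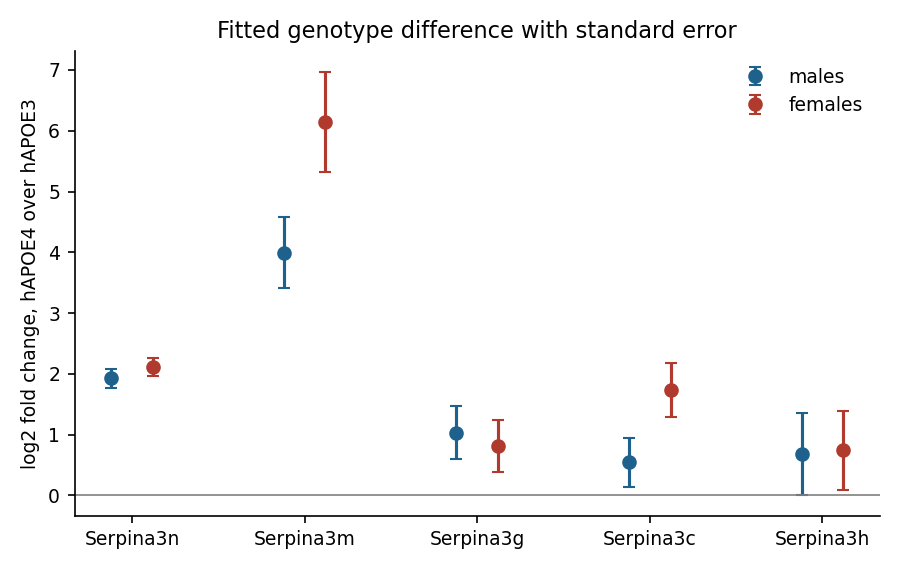
Fitted log2 fold change of hAPOE4 over hAPOE3 (vertical axis) for the 5 members that passed the filter on low counts, in males and in females, with standard errors as bars. Serpina3n lies near 2 in both sexes, Serpina3m higher with wide bars because its hAPOE3 counts are 0 to 2, and Serpina3g, Serpina3c and Serpina3h between 0.54 and 1.74.

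The remaining members, Serpina3k, Serpina3f and Serpina3i, were under the filter. Their CPM were tested within each sex by exact permutation of 5 against 5 mice (two-sided), for which the smallest possible p is 0.00794. Serpina3k, the contrapsin or kallikrein-binding protein of liver, had 0 counts in all 10 hAPOE3 mice. It had 1, 1, 2, 2 and 5 counts in hAPOE4 males (exact p = 0.00794, adjusted over 6 tests 0.0476) and 0, 1, 1, 2 and 3 in hAPOE4 females (exact p = 0.0476, adjusted 0.143). The groups did not overlap in males, and in females 1 hAPOE4 mouse was at 0. The shares of separated genes given above cover genes that passed the filter, so they are no background for Serpina3k. With the same floor of 3 counts over the hAPOE3 group, the Serpina3k counts gave a 3.67-fold difference in males and a 2.12-fold difference in females. Counting error of the hAPOE4 counts is not part of these folds. As its locus partner Serpina3m shares 9.21% of its own 75-base stretches with it, these few reads are uncertain. Serpina3f had 0 to 5 counts in hAPOE3 and 0 to 9 in hAPOE4 mice (exact p = 0.270 in males and 0.206 in females). Serpina3i had 2 to 10 and 0 to 12 counts (exact p = 0.690 and 0.857). For Serpina3f and Serpina3i a genotype difference was not detectable at this depth.

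**Figure D4:**
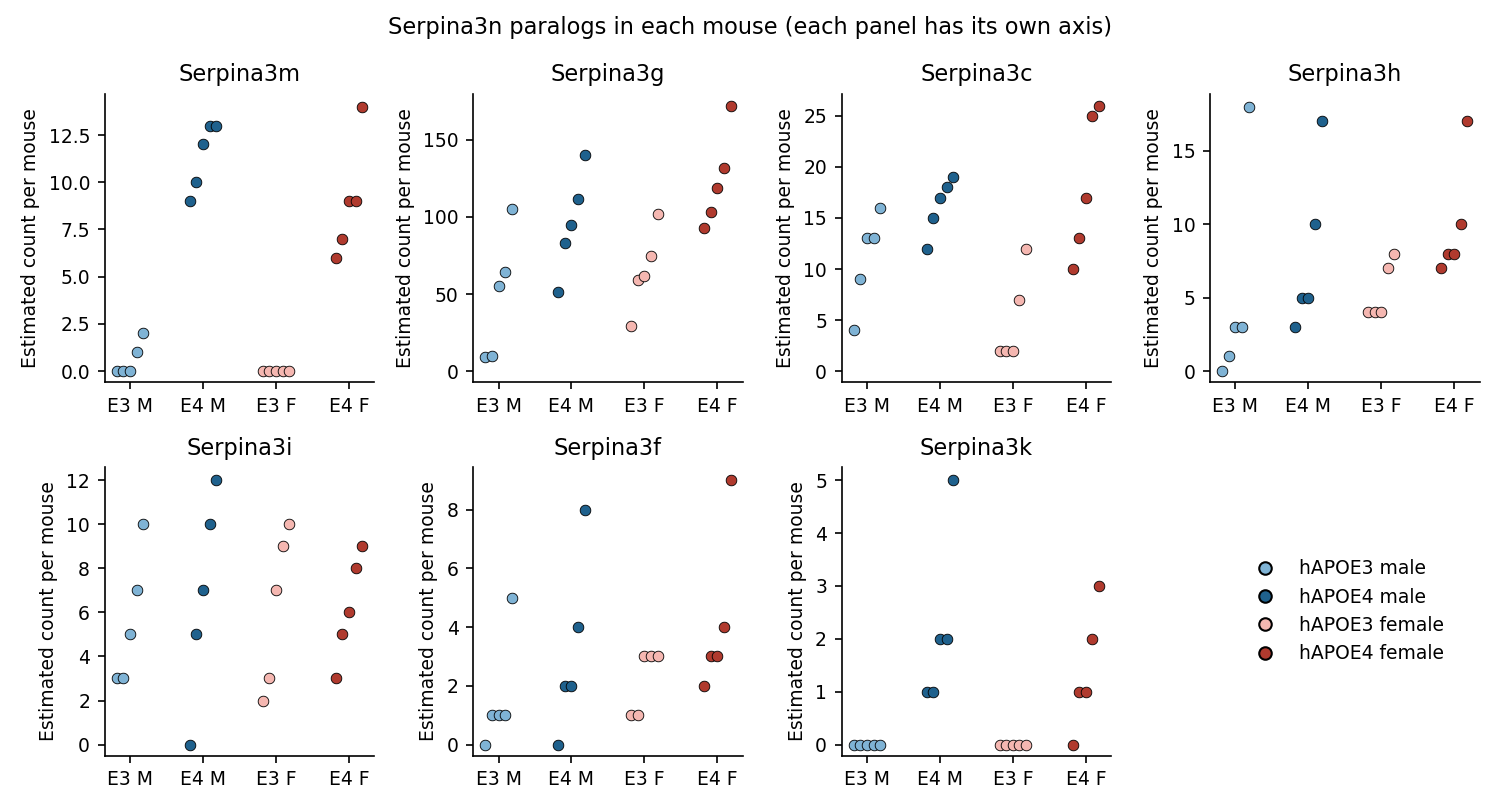
Estimated counts (vertical axis, linear, scaled separately in each panel) of the 7 paralogs in each of the 20 mice, by group (E3 and E4 for hAPOE3 and hAPOE4, M and F for males and females). Every hAPOE4 mouse is above every hAPOE3 mouse for Serpina3m, Serpina3k is at 0 in all hAPOE3 mice, and the genotypes overlap for the other paralogs over the 20 mice.

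Serpina3n made up most of the family's signal in every mouse. Its share of the summed counts of the 8 members was 94.2% to 98.7% in the hAPOE3 males and 94.6% to 97.0% in the hAPOE3 females. In the hAPOE4 mice it was 96.4% to 98.5% (males) and 97.6% to 98.1% (females). Per kb of exon, Serpina3n was highest with 20.3 ± 4.17 and 20.7 ± 2.80 CPM per kb in hAPOE3 males and females and 77.1 ± 14.3 and 89.3 ± 12.4 CPM per kb in hAPOE4 males and females (SD, n = 5). Serpina3g came next in all 4 groups, from 0.511 ± 0.378 CPM per kb in hAPOE3 males to 1.31 ± 0.297 CPM per kb in hAPOE4 females. In hAPOE4 males, Serpina3c (0.169 ± 0.0342), Serpina3m (0.153 ± 0.0262) and Serpina3h (0.133 ± 0.100 CPM per kb) followed, and these neighbours lay within each other's spread. Serpina3m stood in the middle of the order in the hAPOE4 groups and at its bottom, with Serpina3k, in the hAPOE3 groups. The order of the members in each group was the same with the longest transcript in place of all exons.

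The region before the start of Serpina3n was compared with that of the other members, and the Serpina3c window, the closest to it, is shown. RefSeq windows of 250 bases before the start were found for 5 of the 8 members, and Serpina3m, Serpina3k and Serpina3h had none. Of the Serpina3n window, 91.6% of the bases were the same in Serpina3c, against 70.8% in Serpina3i, 67.2% in the closer of the Serpina3f windows and 45.6% in Serpina3g. The windows of Serpina3n (chr12:104406458-104406707, plus strand) and Serpina3c (chr12:104153873-104154122, minus strand) follow, in the GRCm38.p6 build and 5′ to 3′ towards the start, with the 21 bases in each that differ or have no partner in capitals.
Serpina3n: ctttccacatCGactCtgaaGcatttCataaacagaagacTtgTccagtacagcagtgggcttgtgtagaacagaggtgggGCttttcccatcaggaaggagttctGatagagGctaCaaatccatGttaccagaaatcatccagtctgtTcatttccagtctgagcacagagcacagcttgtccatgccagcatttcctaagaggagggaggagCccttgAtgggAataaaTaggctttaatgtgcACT
Serpina3c: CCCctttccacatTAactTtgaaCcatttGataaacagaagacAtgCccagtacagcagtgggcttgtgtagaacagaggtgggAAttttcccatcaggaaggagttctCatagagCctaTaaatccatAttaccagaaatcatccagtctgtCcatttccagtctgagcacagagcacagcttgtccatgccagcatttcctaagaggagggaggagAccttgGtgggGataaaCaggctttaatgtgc

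The windows of the 5 members were searched on both strands for 6 short motifs. The NF-kB motif, GGG and TTTCC with any 2 bases between, had a match in Serpina3n, 171 bases before the start, and in Serpina3i and Serpina3g, but none in Serpina3c, and 1.4% of all 32851 windows hold a match. The glucocorticoid receptor letters AGAACA was found in Serpina3n, 183 bases before the start, in Serpina3c, 180 bases before it, and in Serpina3i and Serpina3f (16.1% of all windows). The C/EBP letters TTNCNNAA occurred in all 5 members with a window, as in 36.8% of all windows. The STAT letters TTCNNNGAA occurred in Serpina3i, Serpina3g and Serpina3f (7.0% of windows) and not in these windows of Serpina3n and Serpina3c. The TATA box letters TATAAA matched in Serpina3f, 186 bases before the start on the opposite strand, and in Serpina3c, 132 bases before it (12.4%). The interferon response element, GAAA and GAAA with any 2 bases between, matched in no member (3.0%). No data on factor binding were measured here, and a match is a description of the letters.

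The difference was then set beside the genes around the cluster. Within 1 Mb of the start of Serpina3n, 47 genes other than serpins were annotated and 16 were tested. In males, in females and for the mean of the sexes, 0 of the 16 passed the edgeR threshold, and 2, 0 and 3 had an unadjusted p under 0.05. Over all tested genes 0.621%, 0.667% and 2.45% passed in either direction, so a count of 0 among 16 lies near the background. Their median log2 fold change for the mean of the sexes was 0.094, between -0.25 and 1.02. The highest was that of Ifi27l2a, an interferon-inducible gene 965 kb away (SE 0.30, adjusted p = 0.0723, edgeR), and it was the 1 gene of the 16 that DESeq2 called, for the mean of the sexes. The other tested serpins of the region, Serpina10, Serpina9 and Serpina12, did not pass the threshold either. Of the Serpina3 copies that are not among the 8, Serpina3a had 4 counts in hAPOE3 and 11 in hAPOE4 mice in total, and the pseudogene Serpina3e-ps had 32 and 64. Both were under the filter.

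**Figure D5:**
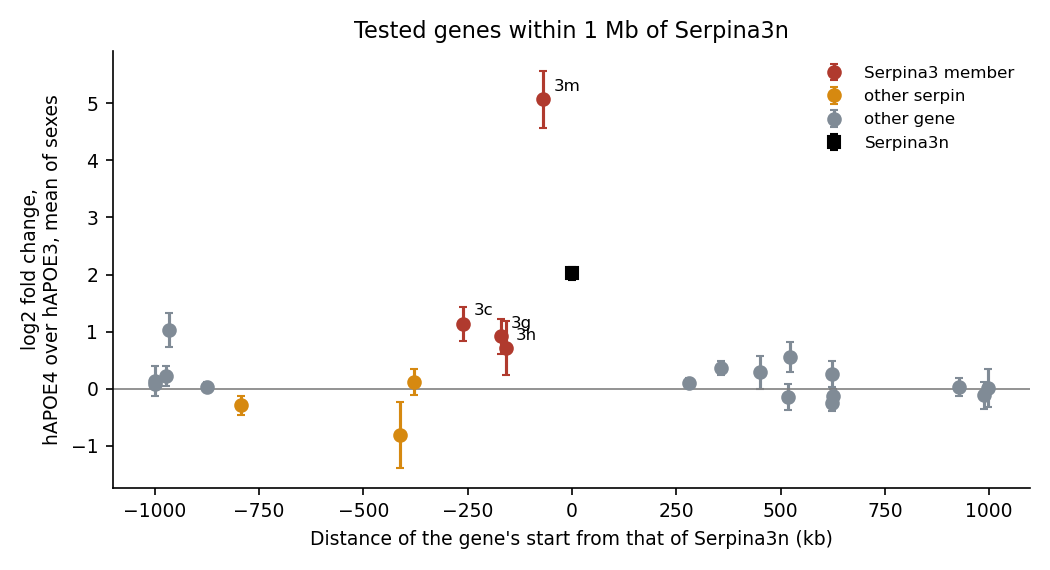
Fitted log2 fold change of hAPOE4 over hAPOE3, mean of the sexes, with standard errors (vertical axis), against the distance in kb of each tested gene's start from that of Serpina3n (horizontal axis). Serpina3n, its paralogs, other serpins and other genes are marked by colour, and the 16 genes that are not serpins lie between -0.25 and 1.02.

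Of the other clade A serpins, the wider family to which the Serpina3 genes belong, 0 of 4 tested passed the edgeR threshold in a genotype comparison, with 1 at an unadjusted p under 0.05 in males, and DESeq2 called 0. With 0.621% to 2.45% of all tested genes called in either direction, 0 of 4 does not set these genes apart. Of 13 tested proteases that serpins of this kind can meet, 1 passed, Plat, the tissue plasminogen activator, which was higher in hAPOE4 (0.35, SE 0.069, adjusted p = 0.00767, edgeR). Plat was 28.2 to 39.6 CPM in hAPOE3 and 39.0 to 53.5 CPM in hAPOE4 mice. The median log2 fold changes of the clade A serpins and the proteases were -0.13 and 0.034, beside 0.0016 over all tested genes.

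Genes with which Serpina3n is known to rise in reactive glia, and genes of its inducers, were counted beside the 2.45% of all tested genes called in either direction. For the mean of the sexes, 0 of 12 pan-reactive astrocyte genes passed the edgeR threshold (median log2 fold change 0.15), 1 of 11 genes of the A1 list (median 0.11), 0 of 11 of the A2 list (0.043) and 0 of 14 disease-associated oligodendrocyte genes (0.014). The called A1 gene was Amigo2, a neuronal and glial adhesion molecule (0.57, SE 0.12, adjusted p = 0.0155, edgeR). Of the inducers, 0 of 19 tested genes of cytokine, STAT3 and NF-kB signalling (median 0.055) and 1 of 15 glucocorticoid response genes (median 0.068) passed. That gene was Pdk4, which encodes an inhibitor of pyruvate dehydrogenase (0.88, SE 0.18, adjusted p = 0.0124, edgeR). At an unadjusted p under 0.05 the numbers were 0, 3, 1, 1, 3 and 3 in the order of the lists. DESeq2 called 0, 1, 0, 0, 1 and 1 of them. In lists of 11 to 19 genes, counts of 0 or 1 lie near the background share.

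Markers of the cell types in the tissue were also examined beside the family. Of 12 astrocyte, 12 oligodendrocyte, 12 microglia, 10 neuron and 10 endothelial markers, 0 passed the threshold for the mean of the sexes, near the 2.45% of all tested genes, with 0, 1, 4, 1 and 3 at an unadjusted p under 0.05 (edgeR). DESeq2 called 1 of them, the microglia marker Aif1, which was lower in hAPOE4. Of 8 oligodendrocyte precursor markers, 1 passed, Gpr17, a receptor of differentiating precursors (0.51, SE 0.10, adjusted p = 0.00917, edgeR). All 8 had a fitted change above 0, from 0.074 to 0.51 with a median of 0.27, beside 0.0016 over all tested genes. An unadjusted p under 0.05 was found for 5 of the 8. The share of all tested genes at that unadjusted p is not given, so such counts of markers are a description only. DESeq2 called 2 of the 8 precursor markers, Gpr17 and Cspg4, a proteoglycan of precursors, both higher in hAPOE4. The part of these cells in the Serpina3n difference was not tested. The summed astrocyte level was 3770 to 5749 CPM in hAPOE3 and 4387 to 5454 CPM in hAPOE4 mice. The choroid plexus markers, which belong to a tissue next to the hippocampus, differed widely within each group, from 79.1 to 3922 CPM in hAPOE3 and from 103 to 6586 CPM in hAPOE4 mice. The 2 mice with the lowest choroid plexus sums in each genotype had 37.5 and 39.6 CPM of Serpina3n in hAPOE3 and 190 and 195 CPM in hAPOE4. With a choroid plexus score in the model the Serpina3n change was 1.93 (SE 0.15) in males and 2.13 (SE 0.15) in females. Of 12 choroid plexus, 5 tested hepatocyte and 5 tested blood markers, 0 passed by edgeR or DESeq2, with 0, 0 and 4 at an unadjusted p under 0.05 by edgeR.

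The genes whose levels ran most like Serpina3n over the 20 mice were found among 16095 tested genes with a mean log2 CPM above 0. With group means subtracted they were Rnf182 (a ubiquitin ligase, Pearson r 0.93), Pkp2 (a desmosome protein, 0.91), Pwwp2b (0.91), Magee2 (0.89) and Atp1b1 (a sodium pump subunit, 0.89). None of these 5 genes had a genotype log2 fold change beyond 0.23 in either sex. Without that subtraction they were Eps8l1 (0.95), Kirrel2 (0.90), Anxa4 (0.88), Mfn2 (0.87) and Washc2 (0.87), whose values follow the genotypes. Eps8l1 and Kirrel2 lie on chromosome 7, 15.2 and 10.8 Mb from Apoe, the replaced gene. Anxa4 and Washc2 lie on chromosome 6, Mfn2 on chromosome 4 and the Serpina3 row on chromosome 12. The mice share library and depth, so these values describe likeness only.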

How the data were processed

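The authors enriched polyadenylated RNA from the hippocampus of each mouse, sequenced 75-base read pairs and quantified mouse cDNA with Salmon 0.91 and, per gene, tximport. The deposited table holds these estimated counts, as whole numbers, for 20 mice. A second table, normalized by the authors with DESeq2, was not used. The members and lists were chosen with earlier results of these data known.

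Counts were fitted with edgeR 4.0.16 in R 4.3.3 after filterByExpr (minimum count 10) and TMM normalization, with 1 mean for each of the 4 groups and the quasi-likelihood test. Adjusted p-values are Benjamini-Hochberg over the 21724 genes tested, with a threshold of 0.05. Counts at an unadjusted p under 0.05 are given without the share of all tested genes at that level. They are a description and are not compared with a background. Standard errors were taken from the fitted change and its F value, and 95% intervals from them. Fitted fold changes include a small prior count. Log2 CPM used a prior count of 2. Members under the filter were tested by exact permutation, with 0 counts given a floor of 3 counts over the group. Labels number no replicates, so replicate numbers follow the order of the samples and pair nothing.

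Named genes were the 8 members, up to 4 called genes of each list with the largest change for the mean of the sexes, the 5 genes most like Serpina3n with and without group means subtracted, tested genes within 1 Mb and Apoe. Positions and transcripts came from GENCODE for GRCm38, which may differ from the cDNA release the authors used, and windows before gene starts from RefSeq. Alternatives were DESeq2 1.42.0, its size factors, no filter, only the groups compared, each mouse left out, and marker scores as covariates. Some genes of the lists, and the list of serpins of other clades, are not reported here. Scripts were tested on simulated data.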

Additional observations from a re-analysis of the deposited data

Results flagged for a closer look

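Among the 32 sets of 5 mice formed by 8 genes and 4 groups, 2 held a mouse far from the other 4. The rule flags about 1 in 20 sets of normally distributed values. Many of these sets hold low counts with ties, and those at 0 in all 5 mice cannot be flagged. That rate therefore does not apply here. Serpina3m in hAPOE4 female replicate 5 was 0.335 CPM (14 counts), with the next mouse at 0.194 CPM (9 counts). Serpina3h in hAPOE3 male replicate 3 was 0.433 CPM (18 counts), with the next mouse at 0.0640 CPM (3 counts).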

How the results depend on the processing

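The Serpina3n change kept its direction and moved by less than the spread between mice under every alternative, from 1.83 to 2.10 on the log2 scale in males and from 2.07 to 2.19 in females, leaving out each mouse included. Serpina3m kept its calls in all 3 genotype comparisons without any 1 mouse, and lost only the male call with the oocyte score (3.67). It did not pass the filter when only the groups compared were fitted, so the paralogs called were then 0 in males and 0 in females. With the oocyte score they were 0 in males and 1 for the mean of the sexes, and with the glial scores 1 for the mean of the sexes. Without a filter they were 2 for the mean of the sexes, Serpina3m and Serpina3k, the latter with an adjusted p of 0.0338 (edgeR). In that fit, adjusted over all genes, Serpina3k did not pass in males (adjusted p = 0.169) or in females (adjusted p = 0.334, edgeR). With DESeq2 they were 2 in females and 3 for the mean of the sexes. Leaving out 1 mouse gave 1 in males, 1 to 2 in females and 1 to 2 for the mean of the sexes. Serpina3c for the mean of the sexes lost its call with no filter (1.15), the oocyte score (1.02) and the glial scores (1.26), and ranged from 1.04 to 1.40 without 1 mouse. In females it gained one with DESeq2 (1.77), with a range of 1.55 to 2.25 without 1 mouse. Serpina3g for the mean of the sexes gained one with DESeq2 (0.93). Serpina3h, never past the threshold, ranged from 0.19 to 2.19 in males and from 0.47 to 1.46 for the mean of the sexes without 1 mouse. The remaining changes of sign were all in differences that passed no threshold. Serpina3h turned to -0.76 in males and -0.026 for the mean of the sexes with the oocyte score, and to -0.17 and -0.011 between the sexes in hAPOE3 and hAPOE4 mice with the glial scores, as did Serpina3n between the sexes in hAPOE3 mice (-0.095). Without 1 mouse, the ranges that crossed 0 were -0.062 to 0.13 for Serpina3n and -0.11 to 1.69 for Serpina3h between the sexes in hAPOE3 mice, -0.051 to 0.25 for Serpina3c and -0.015 to 0.74 for Serpina3h in hAPOE4 mice, and -0.56 to 0.062 for Serpina3g and -1.45 to 0.55 for Serpina3h in the interaction. In alternatives chosen after seeing the data, differences in CPM without 1 mouse ranged from -0.00608 to 0.0670 and -0.0317 to 0.0169 for Serpina3i in males and females, and from 0.0347 to 0.0594 and 0.0214 to 0.0390 for Serpina3k. With 4 hAPOE3 males the exact test for Serpina3k had an adjusted p of 0.143, and without hAPOE4 female replicate 5 the female test passed (adjusted p = 0.0238). Over all genes the calls for the mean of the sexes were 532, from 87 with the oocyte score to 1086 with DESeq2, in males from 6 with the oocyte score to 288 without hAPOE4 male replicate 1, and in females from 74 without hAPOE4 female replicate 2 to 345 with DESeq2. Leaving out 1 mouse moved them by over 1.5 times for 11 of 20 mice in males, 8 in females and 6 for the mean of the sexes. The cause of these shifts was not tested. Levels per kb with the longest transcript differed from those over all exons by less than 1 SD. No paired analysis was possible because the labels number no replicates. Low counts limit every statement on Serpina3m, Serpina3c, Serpina3f, Serpina3h, Serpina3i and Serpina3k.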
